A study of Drosophila melanogaster with 6 samples.

Results

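The proteasome genes examined here were the protein-coding genes of the count table whose names start with Prosalpha, Prosbeta, Rpn or Rpt, 46 of 13395 genes. Of these, 31 encode the general (somatic) subunits, 13 of the core particle and 18 of the regulatory particle. The other 15 carry a T or R suffix and are called testis-type paralogs here, a label by name only. Prosalpha1 and its paralog were not analysed here, so the alpha ring is described by 6 of its genes. RNA was taken from hemocytes, the blood cells of the fly, of Hml-GAL4.delta, UAS-GFP animals, 3 libraries from L3 wandering larvae and 3 from white prepupae. In both stages GFP is made only in cells in which the hemolectin (Hml) driver is active, and GFP-positive cells were sorted before RNA extraction. No source says whether the 3 libraries of a stage came from separate animals or cultures, so p-values measure the spread between these libraries, which may be technical.

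The proteasome degrades proteins that carry ubiquitin chains. Its core particle is a barrel of stacked rings, in which outer alpha subunits form a gated entry and inner beta subunits carry the proteolytic sites. The regulatory particle sits on the barrel. Its base holds a ring of Rpt ATPases that unfold substrates and pull them in, together with large scaffold and ubiquitin-binding Rpn subunits, and its lid holds the Rpn11 deubiquitinase that removes the ubiquitin chain. Plasmatocytes, the phagocytes among fly blood cells, engulf debris when larval tissues are broken down during metamorphosis, and the comparison asks how gene expression in hemocytes differs between the stages.

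Expression is given as CPM, the reads of a gene among 1000000 reads counted in that library, scaled by TMM factors, and a log2 fold change is always prepupal over larval. The libraries held 19228352 to 25958543 counts. All 46 genes entered the same edgeR fit as the other genes, in which 7914 genes passed the filter on low counts, and the threshold for a call was an adjusted p (FDR) below 0.05. All 31 somatic members passed that filter, with 2696 to 10750 counts per library, and only 2 of the 15 testis-type paralogs did. The sorted cells carried plasmatocyte (macrophage) markers in both stages, but 7 of the 8 markers were called lower in prepupae, against 27.3% of all tested genes. The remaining marker, crq, was called higher, at 158 CPM in larvae and 304 CPM in prepupae (log2 fold change 0.95, FDR = 0.00034, edgeR). The summed level of the 8 markers was 16466 to 24898 CPM in larval and 4163 to 6712 CPM in prepupal libraries. Hml, at 5161, 3207 and 6360.4 CPM in larval replicates, was at 248, 83.8 and 114 CPM in prepupal ones. All 4 crystal cell markers were lower too, and 1 lamellocyte marker was higher and 1 lower of 4 tested. Fat body, salivary gland and muscle genes summed to 30.7, 7.09 and 9.49 CPM in larvae and 32.2, 7.53 and 9.03 CPM in prepupae. Of 5 fat body genes tested, 2 were called higher and 1 lower, against 26.6% and 27.3% of all tested genes. None of the 5 salivary gland and 5 muscle genes tested were called. The part of these marker changes in the proteasome values was not tested, and in bulk RNA fewer cells of a type and less RNA per cell cannot be told apart.

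The somatic proteasome genes were expressed at a higher level in prepupal than in larval hemocytes, by a moderate amount and almost throughout. Of the 31 somatic members, 23 were called higher and none lower. Among all genes tested, 26.6% were called higher and 27.3% lower. The log2 fold changes ran from -0.06 for Rpn1 to 1.04 for Prosbeta5, with a median of 0.51 and an SD of 0.28 among the 31 genes, against a median of -0.026 and an SD of 1.05 over all tested genes. Of the 31, 30 had a higher mean CPM in prepupae, and in 24 the lowest prepupal value exceeded the highest larval value. That was so for 31.2% of all tested genes, and the reverse for 31.8% of them and for none of the somatic members. Only Prosbeta5 reached 2-fold, while 21.4% of tested genes changed at least 2-fold in either direction. The summed level of the 31 genes was 5949, 6820 and 5572 CPM in larval replicates 1, 2 and 3 and 8449, 8865 and 8529 CPM in prepupal replicates 1, 2 and 3. The stages did not overlap in this sum, which was 1.41-fold higher in prepupae. TMM factors, 1.05 to 1.11 in larval and 0.91 to 0.96 in prepupal libraries, enter this and all other summed CPM. As a share of counts, without these factors, the sum was 0.631, 0.714 and 0.616% in larval and 0.782, 0.810 and 0.821% in prepupal libraries.

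The larval libraries differed among themselves in the same direction for nearly every subunit. Larval replicate 2 was the highest of the larval libraries for 30 of the 31 somatic members and larval replicate 3 the lowest for 28. This order was not counted over all tested genes, so it cannot be called particular to the subunits. In prepupae the order was mixed, with replicate 2 the highest for 16 genes, replicate 3 for 10 and replicate 1 for 5. Leaving out larval replicate 2 raised the number of somatic members called higher from 23 to 26 and the median log2 fold change from 0.51 to 0.65. Over all tested genes, 2322 of 8151 were then called higher, against 2105 of 7914 with all libraries.

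**Figure D1:**
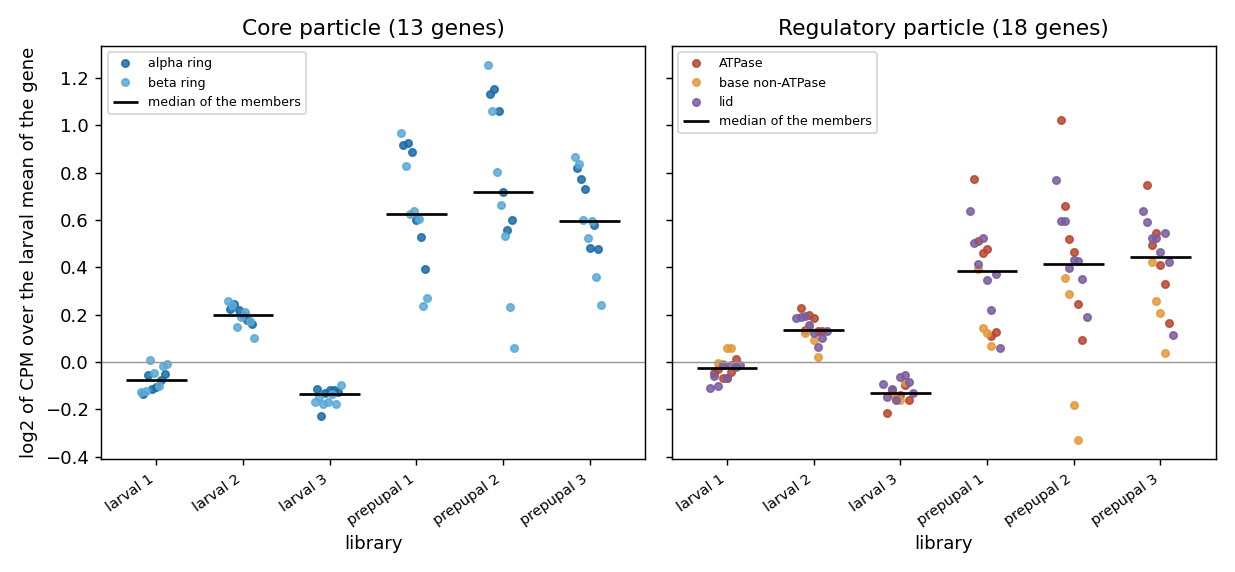
Level of each somatic subunit in each library, as the log2 of its CPM over the mean larval CPM of the same gene (vertical axis, no unit), for the 6 libraries (horizontal axis). Points are genes, coloured by ring or subcomplex, and black bars are medians of the members. Most points of the prepupal libraries lie above 0 in both panels, larval replicate 2 lies above the other larval libraries, and Rpn1 and Rpn2 are the lowest points in prepupal replicate 2.

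The fold changes must be read beside transcript length. Exonic length was known for 7873 tested genes and was related to their log2 fold change (Spearman correlation -0.40), so that short genes tended to be higher in prepupae, and the libraries of a stage also differed along length. A fit in which a loess trend on length was taken out of each library was therefore run as an alternative. Among the 31 somatic members the correlation was -0.62, and core genes are short, with 815 to 1215 exonic bp against 995 to 3412 bp in the regulatory particle. Genes are not independent replicates, and these correlations carry no p-value. With the length trend removed, 21 of the 31 somatic members were still called higher, 20 of them among the 23. The median log2 fold change of the 31 was then 0.36, against 0.066 over all tested genes. In that fit 29.3% of all tested genes were called higher and 22.0% lower. Whether the length trend arose in the cells or in library preparation cannot be told apart here.

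Of the 13 core particle genes, 11 were called higher, 6 of 6 alpha and 5 of 7 beta genes, against 26.6% of all tested genes. Their median log2 fold change was 0.61, and their summed level was 1.61-fold higher in prepupae, at 2271 ± 293 against 3667 ± 237 CPM (SD, n = 3 each). The 3 steepest alpha genes were Prosalpha5 (log2 fold change 0.96, standard error 0.14, FDR = 0.00039, edgeR), Prosalpha4 (log2 fold change 0.96, standard error 0.15, FDR = 0.0007, edgeR) and Prosalpha7 (log2 fold change 0.90, standard error 0.14). All of them encode structural subunits of the outer ring without a proteolytic site. Prosalpha5 was at 133, 170.3 and 135 CPM in larval replicates 1, 2 and 3 and at 276, 320.2 and 258 CPM in prepupal replicates 1, 2 and 3. Prosalpha4 was at 193, 237 and 171 CPM in the larval and 381, 446 and 342 CPM in the prepupal libraries. For both genes the lowest prepupal library lay well above the highest larval library, larval replicate 2. Prosalpha3, Prosalpha2 and Prosalpha6 rose by 0.60, 0.55 and 0.49 on the log2 scale. The lowest of the alpha ring, Prosalpha6, was at 155, 179 and 147 CPM in the larval and 211, 243 and 223 CPM in the prepupal libraries, still without overlap. With the length trend removed, Prosalpha5 and Prosalpha4 stayed at 0.67 and 0.77, while Prosalpha2 lost its call (0.25, FDR = 0.06, edgeR).

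The 3 beta genes whose products carry the proteolytic sites had different values. Prosbeta5 (FBgn0029134, chromosome 2R, 10819978 to 10821178, plus strand of BDGP6), the subunit with chymotrypsin-like activity, was at 168, 219 and 163 CPM in larval and 359, 439 and 335 CPM in prepupal replicates 1, 2 and 3. The stages did not overlap, and its fold change of 2.06 was the highest of all members (log2 fold change 1.04, standard error 0.15, FDR = 0.00047, edgeR). Prosbeta1 (FBgn0010590, chromosome 2R, 16013805 to 16014787, minus strand), the caspase-like subunit, was at 134, 148 and 118 CPM in the larval and 206, 233 and 202 CPM in the prepupal libraries, again without overlap (log2 fold change 0.68, standard error 0.12, FDR = 0.0013, edgeR). Prosbeta2 (FBgn0023174, chromosome 3L, 14999951 to 15001319, plus strand), the trypsin-like subunit, was at 191, 217 and 170.3 CPM in the larval and 227, 227 and 247 CPM in the prepupal libraries. The stages did not overlap, by a narrow margin between larval replicate 2 and prepupal replicate 2, and the gene was not called (log2 fold change 0.28, standard error 0.12, FDR = 0.073, edgeR). Among the alternatives it was called only when larval replicate 2 was left out (log2 fold change 0.40, FDR = 0.012, edgeR). Prosbeta2 shares 82 exonic bp with Reck on the opposite strand, and the libraries keep no strand. Reck had up to 5313 counts in a library and a log2 fold change of 1.68, and how many of the Prosbeta2 counts came from Reck was not tested.

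The ratio of 2 subunits within a library does not depend on scaling, and the 3 ratios of these genes were added after their values were seen. Counts of Prosbeta5 over those of Prosbeta2 were 0.883, 1.01 and 0.959 in the larval libraries, against 1.58, 1.94 and 1.36 in the prepupal libraries, in replicate order. Prosbeta5 over Prosbeta1 was 1.25, 1.48 and 1.38 in larval and 1.74, 1.88 and 1.66 in prepupal libraries. Prosbeta1 over Prosbeta2 was 0.705, 0.681 and 0.693 in larval and 0.906, 1.03 and 0.818 in prepupal libraries. In each of these 3 ratios the stages did not overlap, and the two-sided exact permutation p was 0.1, the smallest that 3 against 3 libraries can give, so none can pass the threshold.

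Of the beta genes without a proteolytic site, Prosbeta4 rose to 1.88 times its larval level (log2 fold change 0.91, standard error 0.14, FDR = 0.0005, edgeR), and Prosbeta7 and Prosbeta3 rose by 0.61 and 0.58 on the log2 scale. Prosbeta6 was the flattest core gene. It was at 173, 187 and 163 CPM in larval and 211, 182 and 206 CPM in prepupal replicates 1, 2 and 3, so that prepupal replicate 2 lay below larval replicate 2, and it was not called (log2 fold change 0.19, standard error 0.11, FDR = 0.17, edgeR). With the length trend removed, Prosbeta3 lost its call (0.27, FDR = 0.061, edgeR), and Prosbeta6 had a log2 fold change of -0.09.

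**Figure D2:**
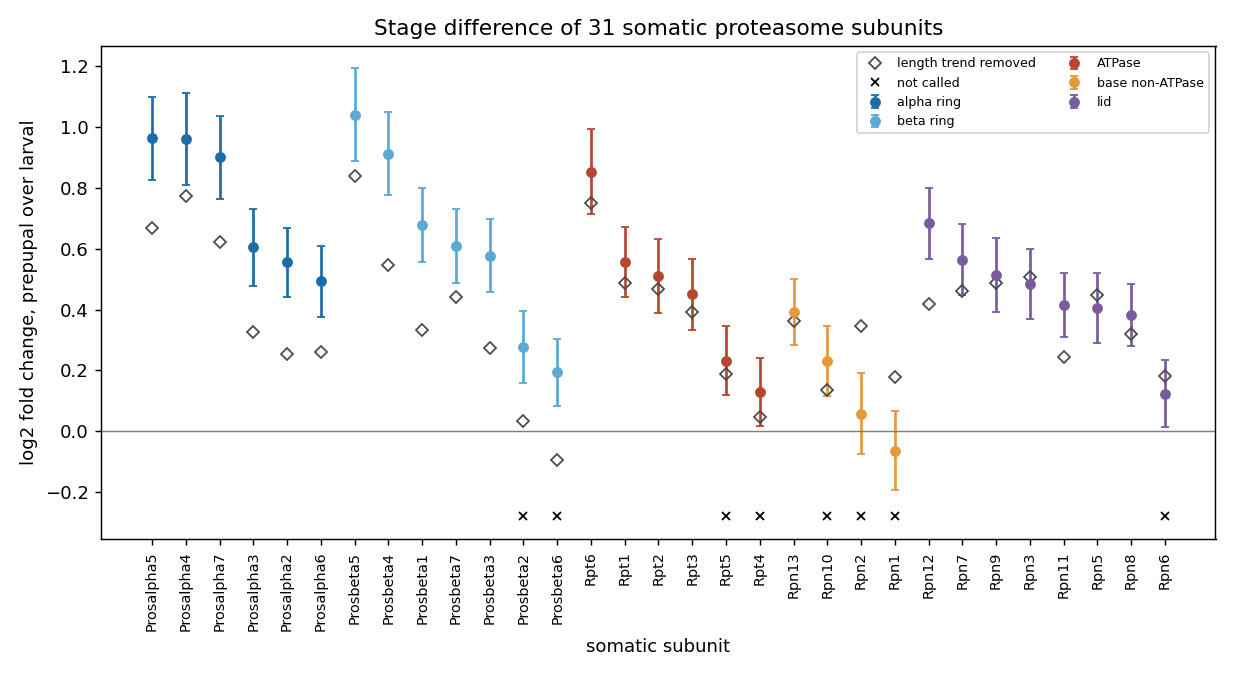
Log2 fold change of the 31 somatic subunits, prepupal over larval (vertical axis), by gene (horizontal axis), grouped by alpha ring, beta ring, ATPases, other base subunits and lid. Filled points with bars are the edgeR estimate ± its standard error, open diamonds the estimate with the length trend removed, and crosses mark the 8 genes that were not called. Diamonds lie below the points for every core gene and above them for the longest genes, Rpn1 and Rpn2.

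Of the 18 regulatory particle genes, 12 were called higher, against 26.6% of all tested genes, with a median log2 fold change of 0.41. Their summed level was 1.29-fold higher in prepupae, at 3842 ± 350 against 4947 ± 106 CPM (SD, n = 3 each). When libraries were scaled by their totals alone, the median of all tested genes was -0.22 and 7 of the 18 were called. In that setting 1456 of 7914 tested genes were called higher and 2927 lower. Rpt3, Rpn11, Rpn5, Rpn13 and Rpn8 lost their calls, while the 11 core calls held.

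Among the 6 ATPase genes, 4 were called higher, against 26.6% of all tested genes. Rpt6 stood apart from the other ATPases and near the steepest core genes, with 169.8, 206 and 151 CPM in larval and 300.3, 357 and 295 CPM in prepupal replicates 1, 2 and 3 (log2 fold change 0.85, standard error 0.14, FDR = 0.00086, edgeR). At 1404 exonic bp it is longer than any core gene, and with the length trend removed it kept a log2 fold change of 0.75. Rpt1, Rpt2 and Rpt3 rose by 0.56, 0.51 and 0.45 on the log2 scale. Rpt5 (0.23, FDR = 0.11, edgeR) and Rpt4 (0.13, FDR = 0.35, edgeR) were not called and overlapped between the stages, and Rpt5 was called without larval replicate 2 (0.33, FDR = 0.031, edgeR).

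Of the 4 other base genes, 1 was called higher, near the 26.6% of all tested genes. The median log2 fold change of the 4, at 0.14, was the lowest of the subcomplexes. Rpn1 and Rpn2 encode the largest subunits, scaffolds of the base. Rpn1 was at 372, 362 and 337 CPM in larval and 374, 284 and 367 CPM in prepupal replicates 1, 2 and 3 (log2 fold change -0.06, standard error 0.13, FDR = 0.7, edgeR). Rpn2 was at 390.5, 399.6 and 336 CPM in the larval and 408, 331 and 433 CPM in the prepupal libraries (log2 fold change 0.06, standard error 0.13, FDR = 0.73, edgeR). In both genes prepupal replicate 2 was the lowest of all 6 libraries and the other prepupal libraries lay within or above the larval range, and neither gene was called. Without prepupal replicate 2 the log2 fold change of Rpn1 was 0.054, and with the length trend removed Rpn2 was called higher (0.35, FDR = 0.036, edgeR), while Rpn1 was not (0.18). Of the ubiquitin receptors, Rpn13 was called higher, with 153, 167 and 140.1 CPM in the larval and 201, 196 and 206 CPM in the prepupal libraries (log2 fold change 0.39, standard error 0.11, FDR = 0.012, edgeR). Rpn10 was at 184, 205 and 166 CPM in the larval and 204, 225 and 221 CPM in the prepupal libraries. Its prepupal replicate 1 lay just below larval replicate 2, and it was not called (log2 fold change 0.23, standard error 0.11, FDR = 0.12, edgeR) except without larval replicate 2 (0.34, FDR = 0.027).

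Of the 8 lid genes, 7 were called higher, against 26.6% of all tested genes. Rpn12 was the steepest, with 114, 140.1 and 116 CPM in larval and 192, 209.9 and 192 CPM in prepupal replicates 1, 2 and 3 (log2 fold change 0.68, standard error 0.12, FDR = 0.0011, edgeR). It is also the shortest regulatory gene, with 995 exonic bp, and was at 0.42 with the length trend removed. Rpn7 followed, with 192, 227 and 180.0 CPM in the larval and 283, 302 and 301 CPM in the prepupal libraries (log2 fold change 0.56, standard error 0.12, FDR = 0.0031, edgeR), and neither gene overlapped between the stages. Rpn11, the deubiquitinase, was at 164, 187 and 165 CPM in the larval and 219, 232 and 237 CPM in the prepupal libraries (log2 fold change 0.42, standard error 0.11, FDR = 0.0086, edgeR). The stages did not overlap, and the call was lost with the length trend removed (0.25, FDR = 0.052, edgeR). Rpn8, the partner with which Rpn11 pairs in the lid, rose by 0.38, and Rpn9, Rpn3 and Rpn5, further structural lid subunits, rose by 0.51, 0.48 and 0.40 on the log2 scale. The Rpn8 call did not hold without larval replicate 1 (0.38, FDR = 0.053, edgeR), nor that of Rpn5 without larval replicate 1 (0.41, FDR = 0.054) or prepupal replicate 3 (0.33, FDR = 0.060). Rpn6, which helps to hold lid and core together, was the flattest lid gene. It was at 221, 244 and 204 CPM in the larval and 232, 255 and 241 CPM in the prepupal libraries, with overlap, and was not called (log2 fold change 0.12, standard error 0.11, FDR = 0.37, edgeR).

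The core thus had a higher median log2 fold change than the regulatory particle, by 0.20. The ratio of summed core to summed regulatory CPM was 0.570, 0.618 and 0.582 in the larval libraries, against 0.743, 0.797 and 0.686 in the prepupal libraries, without overlap. This ratio was not recomputed with the length trend removed. The difference between the medians was not present with the length trend removed, when they were 0.33 for the core and 0.38 for the regulatory particle, a difference of -0.045. In that fit 9 of 13 and 12 of 18 genes were called higher, against 29.3% of all tested genes. Across genes, the Spearman correlation of length and log2 fold change was 0.14 within the core (n = 13) and -0.58 within the regulatory particle (n = 18).

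**Figure D3:**
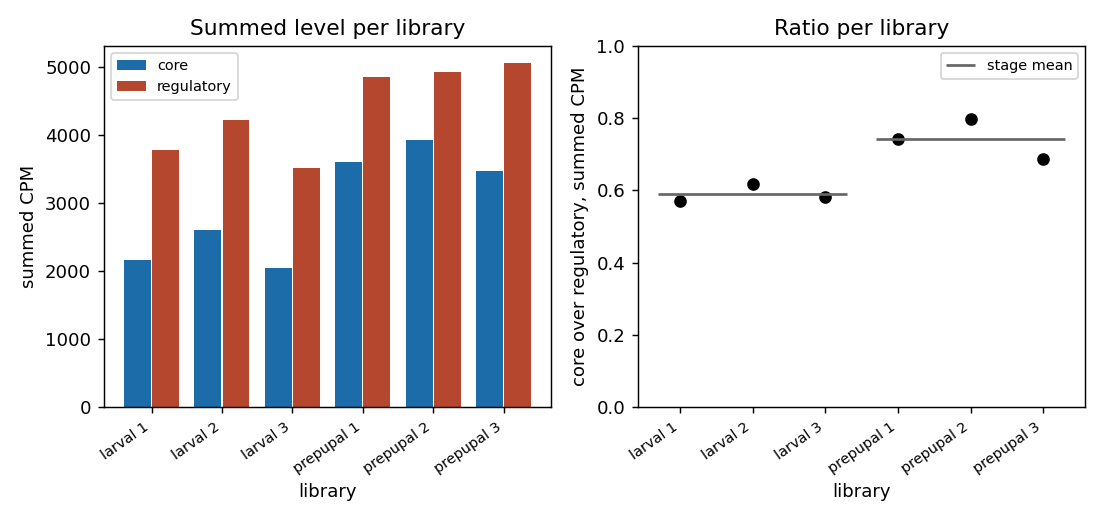
Left, summed CPM (vertical axis) of the 13 core and 18 regulatory somatic genes in each of the 6 libraries (horizontal axis). Right, the ratio of the core sum to the regulatory sum in each library (points) with the mean of each stage (lines). The ratio was 0.570 to 0.618 in larval and 0.686 to 0.797 in prepupal libraries.

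The level of the somatic subunits was high and even. Per kb of exonic length, every one of the 31 genes lay above at least 91.0% of all tested genes in larval and at least 90.6% in prepupal hemocytes. The mean level ran from 91.7 CPM per kb for Rpn13 to 202 CPM per kb for Prosalpha3 in larvae, 2.21-fold, and from 112 CPM per kb for Rpn1 to 362 CPM per kb for Prosalpha7 in prepupae, 3.23-fold. Over all tested genes, the 90th percentile of the level per kb was 112 times the 10th in larvae and 182 times in prepupae, while over the somatic members these factors were 1.78 and 2.52. Core genes stood above regulatory genes per kb, with medians of 164, 198 and 151 against 121, 136 and 113 CPM per kb in larval and 292, 288 and 282 against 146, 157 and 159.8 CPM per kb in prepupal replicates 1, 2 and 3. In larvae 8 of the 13 core genes, and in prepupae 10 of the 13, had a higher mean per kb than any regulatory gene. Core genes are the shorter group, and short genes tended to be higher in prepupae. The part of that length trend in the wider prepupal gap was not tested. Without division by length the picture differed. The median log2 CPM was then lower for core than for regulatory genes in larvae (7.42, 7.71 and 7.37 against 7.56, 7.73 and 7.48) and higher in prepupae (8.10, 8.15 and 8.08 against 7.95, 8.04 and 8.02), and the mean CPM of the 31 genes spanned 3.04-fold in larvae and 1.97-fold in prepupae. The order of the 31 genes by level per kb was similar in the stages (Spearman correlation 0.85, n = 31, with the same length in both). The median coefficient of variation of the 31 genes among replicates was 11.4% in larval and 6.3% in prepupal hemocytes.

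The testis-type paralogs were almost silent. Several of these genes are known in Drosophila for alternative subunits made in male germ cells. Of the 15, 13 reached no more than 6 counts in a library, with 49 counts over these 13 genes and all 6 libraries, and Prosalpha4T1 had 0 counts in every library, which allows up to 3 counts in each by counting error alone. Their somatic partners had 2696 or more counts per library. Per kb, Prosbeta2 lay 2672 times above Prosbeta2R2, with 13 counts over all libraries, and Prosalpha3 lay 2395 times above Prosalpha3T, with 12 counts. How many of these counts were reads of the strongly expressed partner assigned to the paralog was not tested.

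Rpt3R and Rpt6R, paralogs of ATPases, were the 2 exceptions. Rpt3R (FBgn0037742, chromosome 3R, 9754735 to 9756510, minus strand) had 18, 20 and 44 counts in larval and 4, 6 and 11 counts in prepupal replicates 1, 2 and 3. All prepupal libraries lay below all larval libraries, with larval replicate 3 far above the others, and the gene was called lower (log2 fold change -1.62, standard error 0.56, FDR = 0.034, edgeR). Its call was lost without larval replicate 3 (log2 fold change -1.05, FDR = 0.17), without prepupal replicate 1 (-1.38, FDR = 0.098) or 2 (-1.49, FDR = 0.10) and in limma-voom (-1.51, FDR = 0.054). Rpt3R shares 20 exonic bp with CG8412 on the opposite strand, which had 1029, 800 and 882 counts in larval and 477, 579 and 558 counts in prepupal replicates 1, 2 and 3 and was lower in prepupae as well (log2 fold change -0.40). How many of the Rpt3R counts came from CG8412 was not tested. Rpt6R (FBgn0039788, chromosome 3R, 30582198 to 30583697, minus strand) had 25, 22 and 44 counts in larval and 10, 32 and 17 counts in prepupal libraries, with overlap, and was not called (log2 fold change -0.31, standard error 0.48, FDR = 0.61, edgeR). Per kb and averaged over the libraries, Rpt3 lay 321 times above Rpt3R, with 98.9 to 1272 times in single libraries, and Rpt6 lay 223 times above Rpt6R, with 82.5 to 549.9 times. Both paralogs were highest in larval replicate 3, the library in which the somatic subunits were lowest.

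Of 15 genes known from male germ cells, 11 had 10 or fewer counts in every library. Their summed level was 7.77 to 10.8 CPM in larval and 16.2 to 17.3 CPM in prepupal libraries, most of it from mia in larvae and Mst87F in prepupae. The 3 genes of this list that were tested differed in direction. The meiotic arrest gene mia had 143, 117 and 186 counts in larval and 16, 29 and 26 in prepupal libraries and was called lower (log2 fold change -2.31, standard error 0.31, FDR = 0.00026, edgeR). Mst87F, a gene of sperm development, had 40, 34 and 20 counts in larval and 248, 283 and 249 in prepupal libraries and was called higher (log2 fold change 3.40, standard error 0.24, FDR = 6.8e-06, edgeR), and bam was not called (-0.44). Of the other meiotic arrest genes, aly and sa were at 0 in all larval libraries and had at most 1 count in a prepupal library. The gene can had 1 to 3 counts in every library, and comr had 1 count in larval replicate 1 and 6 in prepupal replicate 3. The part of these changes in the paralog counts was not tested.

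**Figure D4:**
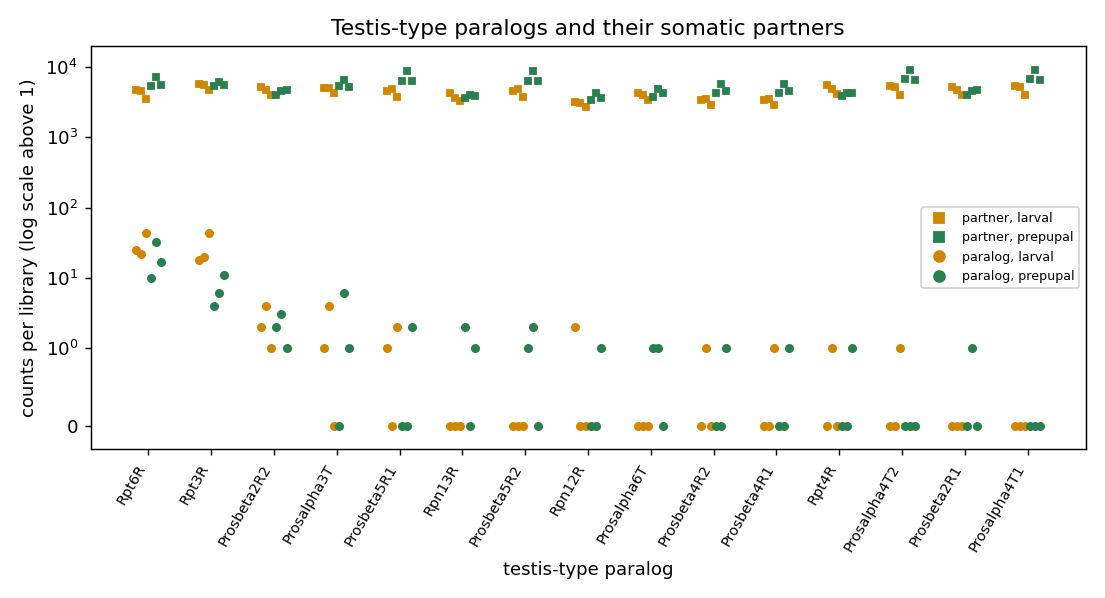
Counts per library (vertical axis, log scale above 1) of the 15 testis-type paralogs (circles) and of the somatic partner of each (squares), by paralog (horizontal axis), in larval and prepupal libraries. Partners lie between 2696 and 9020 counts, Rpt6R and Rpt3R between 4 and 44, and the other paralogs at 6 counts or fewer.

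Of 13 genes that assemble, activate or regulate the proteasome, all tested, 5 were called higher and 3 lower, against 26.6% and 27.3% of all tested genes, which is near that background, and their median log2 fold change was 0.10. Sem1, a small lid subunit outside the naming rule, was at 64.4, 87.1 and 65.2 CPM in the larval and 132, 159 and 118 CPM in the prepupal libraries, without overlap (log2 fold change 0.92, standard error 0.16, FDR = 0.0011, edgeR), and at 0.36 with the length trend removed. Pomp, a chaperone of core assembly, rose as well, from 86.9, 110.4 and 84.2 CPM in larval to 132, 152 and 134 CPM in prepupal libraries (log2 fold change 0.57, standard error 0.13, FDR = 0.005, edgeR). It shares 437 exonic bp with vari on the opposite strand, which had up to 3055 counts in a library and was itself higher in prepupae by 0.63, and how many of the Pomp counts came from vari was not tested. TER94, the segregase that extracts ubiquitylated proteins for degradation, rose by 0.45 (FDR = 0.013), was at 0.75 with the length trend removed (FDR = 0.00091, edgeR), the highest of the list in that fit, and was not called with scaling by total counts (0.26, FDR = 0.081, edgeR).

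The transcription factor gene cnc, whose product is the fly relative of the mammalian Nrf factors that activate proteasome genes, was lower in prepupae. It was at 249.9, 159 and 218 CPM in larval and 118, 82.0 and 91.9 CPM in prepupal replicates 1, 2 and 3, without overlap (log2 fold change -1.11, standard error 0.19, FDR = 0.00099, edgeR). maf-S, which encodes its small Maf partner, was higher (log2 fold change 0.82, standard error 0.15, FDR = 0.0018, edgeR). Both calls held with the length trend removed, at -0.45 and 0.34. REG, an activator that opens the core without ubiquitin, fell by 0.38 on the log2 scale (105, 133 and 125 CPM in larval, 83.2, 107 and 89.2 CPM in prepupal libraries, FDR = 0.039, edgeR). Prepupal replicate 2 lay above larval replicate 1, so the stages overlapped, and the call was lost without larval replicate 2 (log2 fold change -0.28) or 3 (-0.34) or prepupal replicate 1 (-0.30) or 3 (-0.34). CG8858 was called lower (log2 fold change -0.63) and lost its call with the length trend removed (-0.15, FDR = 0.41, edgeR).

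Of 13 genes that supply, carry or remove ubiquitin, 12 were tested, 2 were called higher and 1 lower, against 26.6% and 27.3% of all tested genes, and their median log2 fold change was 0.20. Higher were RpS27A, which encodes ubiquitin fused to a ribosomal protein (log2 fold change 0.55, FDR = 0.013, edgeR), and Ufd1-like, a cofactor of TER94 (0.51, FDR = 0.0084, edgeR). The polyubiquitin gene Ubi-p5E was lower (-0.43, FDR = 0.021, edgeR). RpS27A and Ubi-p5E lost their calls with the length trend removed (0.04 and -0.25), in which 5 of the 12 genes were called, each of them higher, against 29.3% of all tested genes called higher and 22.0% lower. RpS27A also lost it without larval replicate 1 (0.48) or prepupal replicate 2 (0.44), Ubi-p5E without any library other than larval replicate 3 (-0.44 to -0.26), and RpS27A and Ufd1-like with scaling by total counts (0.35 and 0.32).

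The COP9 signalosome, which takes the protein Nedd8 off cullins, is built from subunits related to those of the lid. Of its 9 genes, 8 were tested, 6 were called higher and none lower, against 26.6% and 27.3% of all tested genes, with a median log2 fold change of 0.39. CSN5, which carries the protease site and is related to Rpn11, went from 75.7 ± 8.59 to 118 ± 8.77 CPM (SD, n = 3 each) (log2 fold change 0.64, standard error 0.12, FDR = 0.0018, edgeR). CSN8 (0.65), CSN4 (0.59) and alien (0.43) were called higher as well, and CSN1b and CSN3 were not called, at 0.04 and -0.03. With the length trend removed 3 of the 8 were called, alien, CSN4 and CSN5, near the 29.3% of all tested genes called higher in that fit. The call of alien was lost without larval replicate 1 (0.38) or prepupal replicate 2 (0.33) and with scaling by total counts (0.23). It shares 971 exonic bp with CG17906 on the opposite strand, which has no counts of its own here. How many of the alien counts came from CG17906 was not tested. No test of a difference between these lists and the proteasome members was made.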

How the data were processed

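RNA of sorted GFP-positive hemocytes was sequenced as single reads of 50 bp from unstranded libraries. The authors' methods name trimmomatic for adapters, STAR for alignment to BDGP6 (dm6) and DESeq2 for testing, and the submitters' processing notes also name featureCounts. The authors deposited raw counts per gene, without normalization and without pooling. No source used here states how strand was set in counting. Columns were assigned through the sample descriptions.

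Counts were fitted in R 4.3.3 with edgeR 4.0.16 on the whole table (quasi-likelihood F test after TMM scaling, with filterByExpr at a minimum count of 10), and p-values were adjusted by Benjamini-Hochberg with a threshold of 0.05. Standard errors are the log2 fold change divided by the square root of F. Exonic lengths came from a later Ensembl annotation (46 of 46 members had identical coordinates). Fewer counts give wider errors.

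Members and lists were chosen with earlier results of these data known. Full values are given for catalytic subunits, the deubiquitinase, ubiquitin receptors, the 3 highest and 3 lowest members of each particle, paralogs with at least 10 counts in a library, and the largest called changes of each pathway list.

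Alternatives were other scaling (DESeq2 size factors, total counts, upper quartile), no filter, DESeq2 1.42.0, limma-voom (limma 3.58.1), a 2-fold minimum, a replicate block, the length trend removed (loess, span 0.5, log2 CPM with a prior count of 2) with and without the block, and each library left out. Same-numbered libraries deviated together across genes (correlations 0.28, 0.30 and 0.10), which is where the pairing comes from, since no label explains the numbers. The fits were first tested on simulated data, without and with a length trend put in. Left in the fit, that trend gave many more false calls than when it was removed. This outcome followed from putting the trend in, with slopes other than those of these libraries. It does not tell how many of the printed calls are false. The printed calls are from the fit with the length trend left in unless stated. Sequences of the members were not analysed here.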

Additional observations from a re-analysis of the deposited data

How the results depend on the processing

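The call of every somatic member was recomputed under 15 alternatives without a fold minimum, and 16 of the 23 calls held in all of them. Across the named genes and all alternatives, the 2-fold minimum included, 657 values kept direction and side of the threshold. Another 78 lost and 5 gained a call, and 12 changed sign. The 2-fold minimum took the call from every called named gene below 2-fold, and these losses are among the 78. With the replicate block, 23 members were called higher and 1 lower, as without it, 4736 of all genes were called against 4264, and no call of a named gene changed. Scaling by total counts moved the number of regulatory genes called higher to 7, and the medians to 0.41 for the core and 0.22 for the regulatory particle. It turned Prosbeta6 (-0.0013), Rpt4 (-0.066), Rpn6 (-0.073) and Rpn2 (-0.13), none of them called, and the share of higher among all calls was 33.2% against 49.4%. Removing the length trend moved the core median to 0.33, and to 0.34 with the replicate block. It turned Prosbeta6 (-0.094, and -0.10 with the block) and Rpn1 (0.18 in both), neither called. With at least 2-fold required, 1580 of all genes were called in either direction, 621 of them higher. Of the members, 1 core gene and 0 regulatory genes were then called higher, 1 in all. The number of members called lower was 0 in limma-voom, and between 0 and 1 with each library left out. In those fits 3251 to 4552 of all genes were called in either direction and 1614 to 2322 higher. Of the members, 21 to 26 were called higher, with 11 to 12 core genes and 10 to 14 regulatory genes. The medians ran from 0.56 to 0.74 for the core and from 0.38 to 0.50 for the regulatory particle. Uncalled Rpn2 turned without larval replicate 3 (-0.00070) or prepupal replicate 3 (-0.020, with 0.16 the highest value), Rpn1 without prepupal replicate 2 (0.054) and Rpt6R without larval replicate 3 (0.11, with -0.79 the lowest value). Low counts left 13 testis-type paralogs and, in the lists, CSN1a and Uch-L5R among others untested.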
